A study of Mus musculus with 4 samples.

Results

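Histone genes were examined in 4 single-cell RNA libraries of mouse microglia, the resident macrophages of the brain. The members are the genes whose symbol starts with Hist1h, Hist2h, Hist3h, Hist4h, H2af, H3f3 or H1f and which had at least 1 UMI (unique molecular identifier, a tag that counts 1 captured RNA molecule). Such a symbol was carried by 85 of the 28692 genes measured, and 66 of them had a UMI, among 15708 genes of the whole series with a UMI. The 69 Hist symbols, named after the histone gene clusters, are called clustered here, and the 16 other symbols are called replacement histones. Of these, 55 clustered and 11 replacement symbols had a UMI. One of the 11, H3f3aos, is a noncoding RNA antisense to H3f3a rather than a histone gene. Among the 55, the annotation used below types a Hist2h2bb entry (20 UMIs) as a long noncoding RNA and Hist1h2al (19 UMIs) as a processed pseudogene. Both stay in the clustered counts.

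Each library came from 1 male C57BL/6J mouse aged 90 days (P90), whose cortex and hippocampus were broken up mechanically on ice (cold Dounce homogenisation). All 4 mice had been given PBS by tail vein, 24 hours before sacrifice by the labels, while the study's methods give another interval. There is therefore 1 group (cold Dounce, PBS, n = 4) with no treated or enzyme-digested counterpart, and the comparisons are between replicates and between cells of a replicate. Cells had been sorted as live CD45+ and CD11b+ cells, a gate that takes border macrophages and monocytes as well as microglia.

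Histones package DNA into nucleosomes. The replication-dependent genes lie in clusters, are transcribed mainly in S phase, and give messages that end in a conserved stem-loop instead of a poly(A) tail. Replacement histones, such as the H3.3 proteins of H3f3a and H3f3b, are made throughout the cell cycle from polyadenylated messages, often with introns, and are the main supply of a cell that does not divide. The libraries were primed with oligo-dT, so the values below are levels of polyadenylated histone RNA (or RNA primed at internal runs of A) and not of all histone RNA.

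The sequences that separate the classes are shown first. The stem-loop was searched in the annotated transcripts (GENCODE M21, GRCm38) as 16 bases on the transcribed strand, in capitals here with up to 5 bases on each side. The genes are the 6 clustered genes with a match at a mean of 10 CPM or more, where CPM is the share of a library's UMIs times 1e+06, together with H2afx, the DNA damage variant of H2A, which had the only match among the replacement genes with a UMI.
Hist3h2a, chr11:58955172-58955187, + strand: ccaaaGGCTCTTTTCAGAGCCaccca
Hist1h1c, chr13:23739512-23739527, + strand: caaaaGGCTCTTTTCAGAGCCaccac
Hist1h2ap, chr13:21833029-21833044, - strand: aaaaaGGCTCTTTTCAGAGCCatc
Hist1h2be, chr13:23585531-23585546, - strand: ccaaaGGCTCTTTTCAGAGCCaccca
Hist1h1e, chr13:23621782-23621797, - strand: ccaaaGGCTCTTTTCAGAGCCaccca
Hist4h4, chr6:136803998-136804013, - strand: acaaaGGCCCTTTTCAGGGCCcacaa
H2afx, chr9:44335240-44335255, + strand: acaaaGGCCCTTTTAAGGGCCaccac

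Such a stem-loop was found in 33 of the 54 clustered genes that had a UMI and a transcript sequence, in 6 of 13 clustered genes without a UMI, and in 1 of 11 replacement genes. Over all 55450 annotated genes 0.0848% held a match. The detected clustered genes were thus mostly genes of the replication-dependent kind by sequence, recorded here by a method that reads poly(A). No match says only that these letters are not in the annotated transcript, which in several short models stops near the coding end.

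Clustered genes with higher levels had longer annotated transcripts, running on past the stem-loop. The 8 clustered genes at 10 CPM or more had a median longest transcript of 1780 bases (482 to 2863), against 716 bases in the 14 genes between 1 and 10 CPM, 477 bases in the 32 detected below 1 CPM and 485 bases in the 13 with no UMI. Of the 6 stem-loops among the first 8 genes, 5 were followed by more than 100 further bases, and the median over all 6 was 1398 bases. The shares were 8 of 11 between 1 and 10 CPM, 5 of 16 below 1 CPM and 1 of 6 without a UMI. An AATAAA or ATTAAA signal stood in the last 50 bases of 5, 6, 3 and 3 genes of those 4 classes. Shared sequence moved with the same classes. Of the 98-base windows in a transcript's last 500 bases, a median of 0%, 25.5%, 45.1% and 64.7% also occurred in another gene. Only reads that map to 1 gene are counted, so genes with shared ends can be undercounted. Whether length or shared sequence accounts for the pattern was not tested. Across the 67 clustered genes with a transcript the Spearman correlation of length and mean CPM was 0.45, given as a description, since near-identical neighbours share sequence and 3′ UMI counts depend on where the annotation ends.

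**Figure D1:**
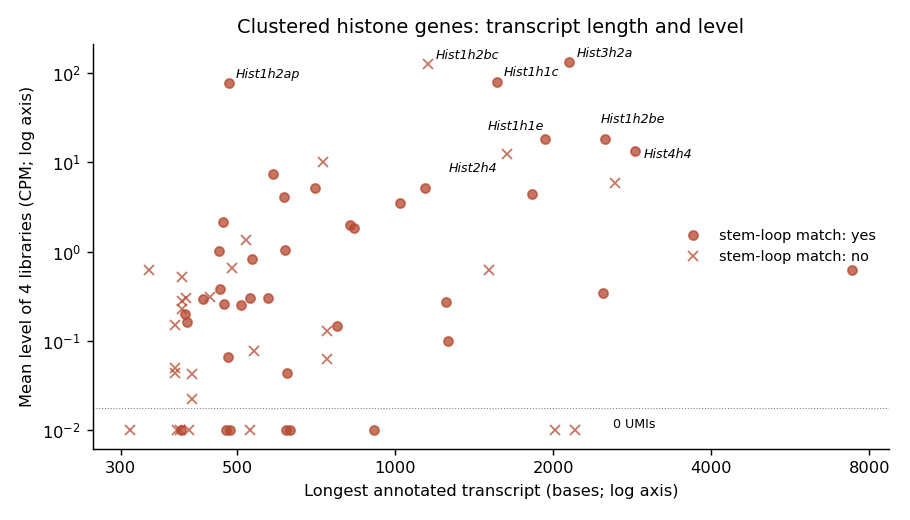
Each point is a clustered histone gene, with the length of its longest annotated transcript (bases, log axis) on the x axis and its mean level over 4 libraries (CPM, log axis) on the y axis. Filled circles have a stem-loop match and crosses have none; the points on the bottom line had 0 UMIs. Hist1h2ap stands alone at the upper left, with 482 bases and 76.5 CPM.

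Hist1h2ap, an H2A gene, was the exception at high level. Its 482-base transcript (chr13:21833026-21833507, 1 exon) stopped 3 bases after the stem-loop, and 92.2% of the 98-base windows in its last 500 bases also occurred in another gene, such as Hist1h2ab or Hist1h2ac. Since Cell Ranger counts only reads that map to 1 gene, by this model its UMIs come from a small part of the transcript and its level is uncertain. The counts were assigned to another gene set, whose models may differ from those used here. Hist1h1e, a linker histone gene, shared 99.0% of such windows, as its annotated end overlaps the Hist1h2be gene by 496 bases on the same strand. The Hist1h1e value is therefore uncertain. In Hist3h2a, Hist1h2bc, Hist1h1c, Hist1h2be, Hist4h4 and Hist2h4 no window (0%) was shared.

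The 4 matrices held 5841671 to 11267195 UMIs in 2576 to 3692 cells each (13002 in all), of 2619 to 3703 barcodes deposited per library, that passed the minimum of 400 genes and the mitochondrial limit of 10%. Every cell had at least 2 of 8 microglial markers, and markers of neutrophils were at 0. Cells with at least 2 border macrophage or monocyte markers numbered 9, 15, 18 and 46 in replicates 1 to 4. Replicate 4 stood apart in the summed level of 15 immediate early genes, which respond within minutes to stimulation and to cell handling. Their sum was 1610, 1803, 1658 and 3586 CPM (Dixon ratio 0.902, which is the gap of the farthest value over the range and is called when above its 95% critical value for 4 values). Single genes differed in size of change. Fos was at 6.52, 13.4, 10.6 and 142 CPM and Egr1 at 3.68, 6.92, 6.16 and 105 CPM, but Atf3 at 11.5, 12.8, 10.8 and 13.8 CPM. Of the 12 such genes at 10 CPM or more, 6 had a library apart on the log2(CPM + 1) scale. The study's supplement describes a sorter clog during the last animal, which it numbers as the fourth sample, but the labels use other numbers and do not say which library that was. Cell barcodes of 81 sequences occurred in more than 1 library.

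Replacement histones made up most of the histone RNA. They summed to 2404 ± 209 CPM (SD, n = 4) and the clustered genes to 536 ± 38.1 CPM, so that clustered genes gave 18.3% ± 1.26 of all histone UMIs. The clustered sum was 521, 557, 490 and 575 CPM in replicates 1 to 4, and the replacement sum 2129, 2408, 2443 and 2636 CPM. Dixon's range test set no library apart in either sum (ratios 0.359 and 0.551) or in the clustered share (0.412). A UMI of a clustered gene was found in 59.6% to 76.1% of the cells of a library and a UMI of a replacement gene in 96.3% to 99.0%, shares that rise with depth (median 1905 to 2936 UMIs per cell). These CPM values count molecules at their 3′ end and are not divided by transcript length, so levels may be set side by side between genes, within the limits of mapping given above.

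The makeup differed strongly between the histone families. H3 RNA was nearly all H3f3a and H3f3b, with 1654 ± 203 CPM against 11.7 ± 1.303 CPM for the 12 clustered H3 symbols, which gave 0.714% ± 0.146 of H3 UMIs. H2A RNA was 24.7% ± 1.63 clustered (224 ± 9.31 CPM against 685 ± 37.3 CPM of replacement genes). Linker histone H1 RNA was 59.9% ± 4.27 clustered, with 98.2 ± 29.7 CPM against 64.2 ± 9.29 CPM. The H2B and H4 families have no replacement symbol in the rule, and clustered genes gave 155 ± 24.3 CPM of H2B and 46.0 ± 12.4 CPM of H4. The UMIs counted for the 4 core families were therefore very unequal, with H4 lowest and H3 highest in each library. Reads that map to several genes are dropped, so genes with shared ends can be undercounted. Of the 98-base end windows 5.21% were shared with another gene in H3f3b and 11.2% in H3f3a. The share ran from 0% to 100% among clustered H3 genes and from 0% to 88.2% among H4 genes. By locus, the 55 Hist1 symbols summed to 351 ± 35.0 CPM, the 11 Hist2 symbols to 36.8 ± 4.23 CPM, the 2 Hist3 symbols to 135 ± 6.95 CPM and Hist4h4 alone to 13.4 ± 6.85 CPM.

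**Figure D2:**
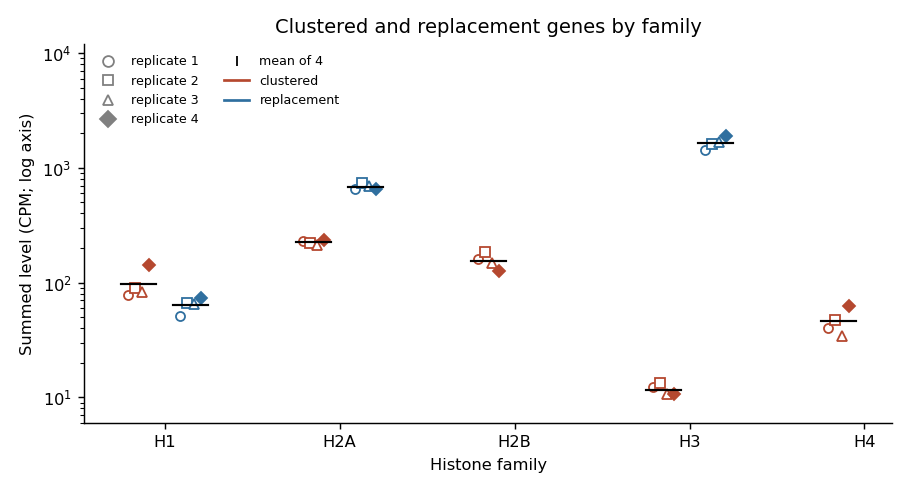
Summed level (CPM, log axis) of the clustered (red) and replacement (blue) genes of each histone family, with a symbol for each of the 4 libraries (replicate 4 filled) and a black line at the mean. H3 replacement genes reach 1654 CPM and clustered H3 genes 11.7 CPM; in clustered H1 and H4 replicate 4 is the highest library.

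Among the replacement genes H3f3b led. Its levels were 1012, 1178, 1277 and 1498 CPM in replicates 1 to 4 (1241 ± 203 CPM), and those of H3f3a, which encodes the same H3.3 protein, were 406, 428, 408 and 410 CPM (413 ± 10.3 CPM). The H3f3b part of the H3.3 RNA was thus 71.4%, 73.3%, 75.8% and 78.5%, highest in replicate 4, while H3f3a stayed within 406 to 428 CPM. H2afz, which encodes H2A.Z, an H2A variant of promoters and enhancers, was at 365, 409, 380 and 371 CPM. Its close relative H2afv was at 68.7, 79.1, 72.4 and 68.2 CPM. H2afy, which encodes macroH2A, was at 126, 135, 139 and 109 CPM, lowest in replicate 4. H2afj, an H2A variant gene, had 82.3, 96.4, 86.8 and 88.5 CPM, and H2afx had 16.7, 15.3, 14.9 and 16.3 CPM. H1f0, the linker histone typical of differentiated cells, had 51.6, 66.5, 64.9 and 73.9 CPM. The other replacement symbols were near the limit of detection, with 25 UMIs of H3f3aos, 9 of H2afy2 and 1 of H1fx, and no UMI of H1fnt, H1foo, H2afb1, H2afb2 or H2afb3. A count of 0 over the 4 libraries allows up to 0.0905 CPM (3 UMIs, counting error only).

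The RefSeq promoter of H3f3b, the highest member (GRCm38.p6, chr11:116024455-116024754, - strand, 250 bases before to 50 after the start), carried CCAAT 4 times and TATAAA 1 time, shown in capitals, while that of Hist1h2ap (chr13:21833426-21833725, - strand) carried CCAAT on either strand 3 times and no TATAAA. They are shown as the highest gene of the set and as the gene with the lowest adjusted p in the comparison of cells below.
H3f3b: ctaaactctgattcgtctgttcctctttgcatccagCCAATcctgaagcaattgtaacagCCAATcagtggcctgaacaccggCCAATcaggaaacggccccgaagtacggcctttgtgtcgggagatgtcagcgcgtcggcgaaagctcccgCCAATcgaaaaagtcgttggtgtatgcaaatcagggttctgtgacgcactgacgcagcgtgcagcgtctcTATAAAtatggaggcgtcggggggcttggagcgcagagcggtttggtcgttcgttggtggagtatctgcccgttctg
Hist1h2ap: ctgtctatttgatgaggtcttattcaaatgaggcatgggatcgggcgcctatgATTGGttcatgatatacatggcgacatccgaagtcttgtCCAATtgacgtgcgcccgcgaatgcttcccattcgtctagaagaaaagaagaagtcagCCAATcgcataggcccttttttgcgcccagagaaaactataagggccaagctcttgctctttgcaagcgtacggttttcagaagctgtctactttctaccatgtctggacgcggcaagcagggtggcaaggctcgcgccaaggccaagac
Of 57 members matched to a promoter, CCAAT was found (both strands) in 41 of 48 clustered and 6 of 9 replacement genes, against 37.4% of all 32851 promoters of the same length, and TATAAA in 28 and 1, against 13.6%. Of the clustered genes at 10 CPM or more 1 of 6 held TATAAA, and of those below 10 CPM 27 of 42. Only these exact letters were counted, and variants such as TATAAG, which stands in the Hist1h2ap promoter above, were not. The AP-1 motif TGACTCA, the site of Fos and Jun dimers, was found in 0 of the 57 (5.20% of all promoters) and the CREB motif TGACGTCA in 3 clustered genes (1.79%). These matches are a description of the window and say nothing of binding.

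Clustered RNA was concentrated in a few genes. The 4 highest, Hist3h2a, Hist1h2bc, Hist1h1c and Hist1h2ap, gave 76.6% ± 1.31 of clustered UMIs. Hist3h2a, an H2A gene outside the large cluster, was the most even, at 138, 124, 133.7 and 126 CPM. Hist1h2bc, an H2B gene whose transcript has 2 exons, was at 128, 151, 120 and 96.1 CPM, lowest in replicate 4. Hist1h1c, the linker histone H1.2 gene, was at 58.8, 67.2 and 66.1 CPM in replicates 1 to 3 and at 125 CPM in replicate 4. Hist1h2ap was at 77.2, 81.9, 62.7 and 84.2 CPM. Hist1h1e had 18.0, 21.5, 16.6 and 15.999 CPM and Hist1h2be 17.4, 19.97, 14.9 and 19.8 CPM. Of the H4 genes, Hist4h4 had 9.35, 11.0, 9.76 and 23.7 CPM and Hist2h4 had 10.9, 14.7, 7.87 and 16.1 CPM.

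Below 10 CPM, Hist1h4i was at 10.2, 10.6, 6.68 and 12.4 CPM (mean 9.97 CPM) and Hist2h2aa1 at 5.39, 6.30, 6.505 and 11.4 CPM, an H2A gene of which 100% of end windows are shared with other genes. Hist1h1d and Hist1h2ac, which the study lists among genes of ex vivo activated microglia, were nearly absent, with 23 and 11 UMIs over the 4 libraries (0.627 and 0.346 CPM). Hist1h1c, Hist1h1e, Hist1h2bc, Hist1h4i and Hist2h2aa1 are on the study's activation lists as well, and were detected at the levels given above. Of the members 30 reached a mean of 1 CPM (22 clustered) and 16 reached 10 CPM (8 clustered and 8 replacement). Another 36 were detected below 1 CPM, and 19 of the 85 symbols (14 clustered) had no UMI. A UMI in every library was found for 49.

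**Figure D3:**
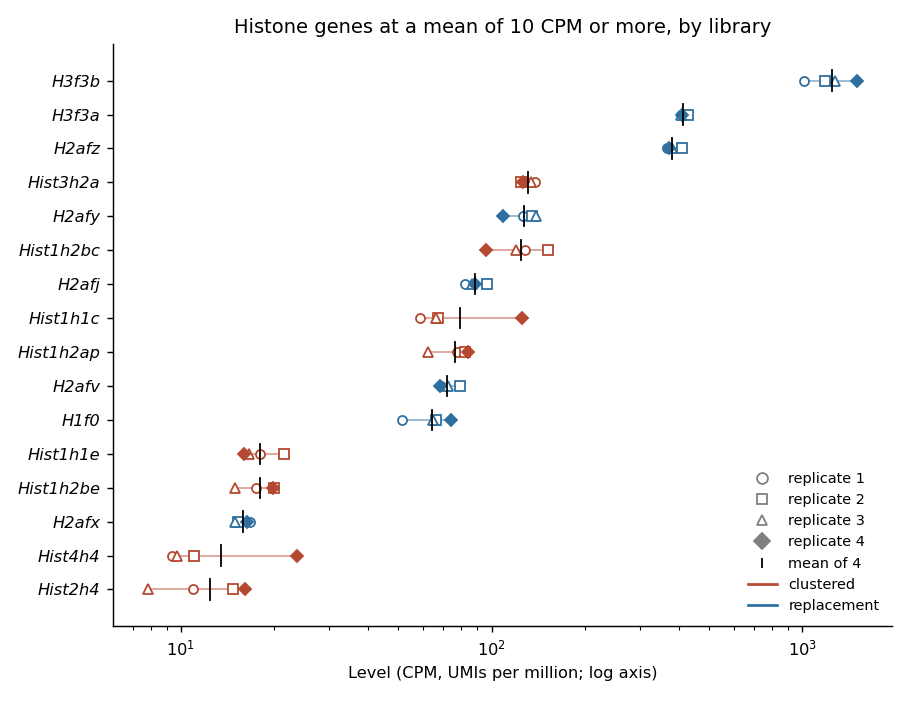
Level of the 16 histone genes at a mean of 10 CPM or more (CPM, log axis), with a symbol per library (replicate 4 filled), a black tick at the mean and red for clustered and blue for replacement genes. Replicate 4 lies far to the right of the others in Hist1h1c and Hist4h4 and to the left in Hist1h2bc.

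The libraries were then compared with each other. Dixon's range test on log2(CPM + 1) set 1 library apart in 1 of the 16 members at 10 CPM or more, against 4.62% of the 7656 genes tested (354 genes), and replicate 4 was the highest library set apart in 1.1%. The member was Hist4h4 (ratio 0.8295, just above the critical value), with 13.4 ± 6.85 CPM and replicate 4 at 2.36 times the mean of the other 3. Hist1h1c came next with a ratio of 0.825, below the critical value, and 1.96 times the mean of the others in replicate 4. The share of members called lay close to the background, and the call of Hist4h4 was lost under TMM scaling (0.812) and DESeq2 size factors (0.810).

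The members' spread between libraries was wide in a few genes. Their median coefficient of variation over the 4 libraries was 12.9%, against 7.75% over all genes tested, and 10 of 16 were above that median. Hist4h4 (50.9%), Hist1h1c (38.9%) and Hist2h4 (30.1%) lay at the 99.7th, 99.5th and 98.9th percentile of genes tested, and Hist1h2bc (18.4%) and H3f3b (16.4%) at the 94.2th and 91.4th. H3f3a (2.49%), Hist3h2a (4.98%) and H2afz (5.06%) were at the 4.09th, 23.1th and 23.8th percentile. For Hist4h4 counting error alone gives 9.56% and for Hist1h1c 3.96%, far below the spread between these mice. Replicate 4 was the highest library in 6 of the 16, against 31.8% of all genes tested.

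**Figure D4:**
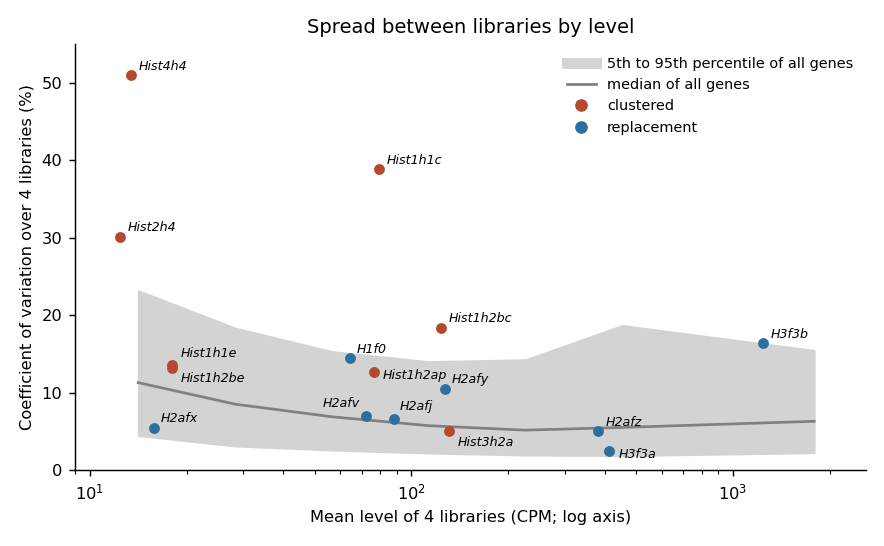
Coefficient of variation over 4 libraries (%) against mean level (CPM, log axis). The grey band spans the 5th to 95th percentile of all genes of similar level and the grey line their median; red points are clustered and blue points replacement genes. Hist4h4 (50.9%), Hist1h1c (38.9%), Hist2h4 (30.1%) and Hist1h2bc (18.4%) lie above the band, and H3f3b (16.4%) lies at its edge, above the 15.5% that is the 95th percentile of its level class.

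In replicate 4 Hist1h1c was found in more cells and also in more UMIs per cell. After thinning each cell to 1000 UMIs it was seen in 11.5% of cells of replicate 4 and in 5.87%, 6.70% and 6.42% of cells of replicates 1 to 3. Of the 90 cells with 3 or more Hist1h1c UMIs 77 were in replicate 4. Counting only the cells with at most 2, replicate 4 was at 95.2 CPM, or 1.52 times the mean of the others. Hist4h4 was seen in 1.95% and in 0.515%, 1.17% and 1.12%. Its UMIs were the least evenly spread of the 16 members, with a variance of 1.21 times the mean (Fano factor, 99.0th percentile of genes tested), followed by Hist1h2ap at 1.11 (97.8th percentile). For Hist4h4 46 to 141 cells per library held a UMI and no cell held more than 7. Hist3h2a, at 0.993, was spread as evenly as a Poisson law gives. The share of H3f3b-positive thinned cells was 62.5% to 76.2%.

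Cells with at least 2 mitotic markers were rare and gave few of the histone UMIs. At least 2 of 15 mitotic markers were detected in 4, 2, 0 and 3 cells of replicates 1 to 4, 9 of 13002 cells in all. These held 0.0978% of all UMIs, 0.406% of clustered UMIs (exact Clopper-Pearson 95% interval 0.318% to 0.510%) and 0.243% of replacement UMIs (0.210% to 0.280%). Without them the clustered sum was 534 CPM and the replacement sum 2401 CPM, against 536 and 2404 CPM with them. The interval, like the floors, covers counting error only.

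The genes differed in how they stood in those 9 cells. Hist1h2ap was at 1357 CPM there and at 76.9 CPM in the other cells, H2afx at 339 and 15.5 CPM, H2afz at 2590 and 382 CPM, and H2afv at 524 and 72.3 CPM. For Hist1h2bc, Hist3h2a and H3f3b the 2 levels were 92.5 and 126 CPM, 92.5 and 129 CPM, and 1480 and 1247 CPM. The Hist1h2ap level rested on 2 cells, a replicate 4 cell with 23 UMIs of it and a replicate 1 cell with 12, which held 35 of the 44 UMIs. The other 7 cells had 9 UMIs (393 CPM), and 3 of them had none. Hist1h2bc and Hist3h2a had 3 UMIs each in the 9 cells, and their levels rest on the other cells. The cell with the most clustered UMIs, in replicate 4, had 30, of which 23 were of Hist1h2ap, and carried 13 mitotic markers. No test was made, as the cells come from 3 libraries and number 9. Cells in S phase without mitotic markers are not covered by this count. A list of 15 S phase markers summed to 154 ± 7.68 CPM, against 9.39 ± 3.39 CPM for the 15 mitotic markers, and cells were not counted by it.

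The last question was whether histone RNA varied with immediate early genes between cells of the same library. Cells were thinned to 1000 UMIs, and in each library the 25% of cells with the most immediate early UMIs were compared with the other cells by edgeR's quasi-likelihood test on sums per library, with library as a block and immediate early genes left out. Hist1h2ap and Hist4h4 rose among the 18 members tested and none fell, against 0.235% of 8518 genes called higher and 0.0587% lower (20 and 5 genes). At an unadjusted p under 0.05 there were 3 members higher and 0 lower, against 6.12% of all genes in either direction. The median fitted log2 change was 0.01 over the members and 0.00 over all genes, and 9 of the 18 were above 0, against 51.2% of all genes.

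Hist1h2ap was at 79.2, 99.6, 78.9 and 140 CPM in the cells rich in immediate early UMIs of replicates 1 to 4 and at 71.4, 81.1, 61.6 and 63.3 CPM in the other cells. It was higher in 4 of 4 libraries (log2 fold change 0.50, SE 0.11, adjusted p = 0.00468, Benjamini-Hochberg over all genes). Hist4h4 was at 6.89, 14.2, 17.7 and 52.3 CPM against 5.35, 12.7, 9.65 and 14.7 CPM, also higher in 4 of 4 (log2 fold change 1.05, SE 0.24, adjusted p = 0.0126), from 6 to 40 UMIs per library in the first set of cells. In both genes replicate 4 showed the largest difference. The log2 ratio of Hist1h2ap was 1.13 in replicate 4 and 0.15 to 0.35 in replicates 1 to 3. For Hist4h4 it was 1.76 in replicate 4 and 0.15 to 0.81 in replicates 1 to 3.

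Both calls depended on single libraries and on the settings. Without replicate 4 the log2 fold changes were 0.24 and 0.41 (adjusted p = 0.900 and 0.975). Hist1h2ap also missed the threshold without replicate 2 (adjusted p = 0.0528) and Hist4h4 without replicate 3 (adjusted p = 0.0590). Over 15 alternatives the edgeR or DESeq2 adjusted p ranged from 6.06e-04 to 1.0 for Hist1h2ap, past the threshold in 9, and from 7.65e-05 to 1.0 for Hist4h4, past it in 8. DESeq2 on the same sums called neither. Without cells with at least 2 mitotic markers Hist1h2ap was no longer called (log2 fold change 0.36, adjusted p = 0.131), and without cells with at least 2 border macrophage or monocyte markers, an alternative chosen after seeing the data, neither was (0.42 and 1.0, adjusted p = 0.135 and 0.0715). Cells of the latter kind numbered 3, 1, 6 and 14 of 874, 917, 623 and 770 in the rich set and 6, 14, 12 and 31 of 2621, 2752, 1868 and 2312 in the other. Their part in the result was not tested further. The genes called with the lowest p, Ifitm3, Lyz2 and Ccl4, include genes high in monocytes and in activated myeloid cells.

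**Figure D5:**
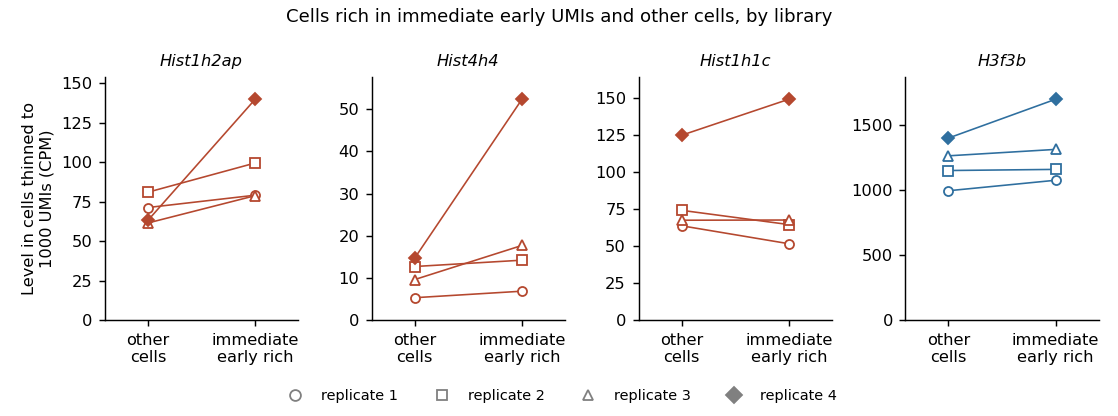
Level (CPM, cells thinned to 1000 UMIs) of 4 histone genes in the cells rich in immediate early UMIs and in the other cells, with a line per library (replicate 4 filled). Hist1h2ap and Hist4h4 climb most steeply in replicate 4 (63.3 to 140 CPM and 14.7 to 52.3 CPM), and Hist4h4 also in replicate 3 (9.65 to 17.7 CPM), while Hist1h1c is high in both kinds of cells of replicate 4.

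Hist1h1c differed between libraries in both kinds of cells. In the other cells it was at 63.8, 74.2, 67.5 and 125 CPM, and in the rich cells at 51.7, 64.6, 67.7 and 149 CPM, with a log2 fold change of -0.01 (SE 0.11, adjusted p = 0.998). Replicate 4 was the highest library for Hist1h1c in both kinds of cells. The other cells of replicate 4 also had more immediate early UMIs (mean 2.204 per thinned cell) than those of the other replicates (0.985 to 1.15). H3f3b was higher in 4 of 4 libraries by a small amount that missed the threshold (1076, 1159, 1313 and 1698 CPM against 995, 1151, 1264 and 1400 CPM, log2 fold change 0.11, SE 0.03, adjusted p = 0.110). With library totals alone in place of TMM it was past it (0.12, adjusted p = 0.0348). Hist3h2a was lower in 4 of 4 libraries, but by a log2 fold change of only -0.09 (SE 0.08, adjusted p = 0.961).

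As classes, the clustered sum differed by a log2 ratio of 0.04, 0.01, -0.02 and 0.49 in replicates 1 to 4 (mean 0.13 ± 0.24) and the replacement sum by 0.08, -0.01, -0.03 and 0.13 (mean 0.04 ± 0.07). Across 12737 thinned cells, correlations with the immediate early sum within a library were weak in all 16 members, from -0.0202 in H3f3a to 0.0399 in Hist1h2ap. The 5th to 95th percentile of 7644 genes was -0.015 to 0.016, and the highest of any gene was 0.0476. Within that narrow range Hist1h2ap ranked 3 and H3f3b (0.0381) ranked 4 from the top, Hist4h4 (0.0204) lay at the 98.4th percentile and H3f3a at the 1.48th. In replicates 1 to 4 the values were 0.0023, 0.0432, 0.0044 and 0.110 for Hist1h2ap. Those for H3f3b were 0.019, 0.0212, 0.0261 and 0.0861, so replicate 4 weighed most in both means. With cells thinned to 2000 UMIs Hist1h2ap and Hist4h4 lay at the 99.9th percentile, H3f3b at the 97.8th and H3f3a at the 40.04th. The points share library and depth and the counts are sparse, so these are descriptions. The 120 pairs of members were as weakly correlated with each other, from -0.02 to 0.03.

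Genes for making and handling histone RNA and protein were detected, some barely. All 20 genes of a list for histone 3′ end processing and polyadenylation had UMIs, and 16 were at 10 CPM or more, among them Slbp, which encodes the protein that binds the stem-loop, at 110, 98.4, 107 and 113 CPM. The list summed to 1127 ± 9.74 CPM. All 23 histone chaperone genes had UMIs as well, and 19 were at 10 CPM or more (sum 1261 ± 14.6 CPM). Zfp473 of the first list and Chaf1a and Chaf1b of the second, subunits of the replication-coupled chaperone CAF-1, had 16 UMIs each over the 4 libraries (0.447, 0.470 and 0.460 CPM), and are named after their values were seen. No gene of either list had a library apart. In cells rich in immediate early UMIs 0 of 19 tested genes of the first list and 0 of 19 of the second were called by edgeR, with 2 and 1 at an unadjusted p under 0.05, and DESeq2 called 0 and 0. The lowest adjusted p was 0.805 for Cstf2 and Xrn2 in the first list (log2 fold change -0.75 and -0.23) and 0.793 for Nap1l4 in the second (-0.22).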

How the data were processed

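Libraries were made with 10x Genomics 3′ version 2 chemistry, 1 per mouse. The authors deposited UMI counts per gene and cell, not normalised, with Cell Ranger 2.2.0 on the mm10 build (GRCm38) and a filtered Ensembl gene set. Cell Ranger drops reads that map to several genes. Cells under 400 genes or over 10% mitochondrial UMIs were dropped, and counts were summed per library, as in the study. Unlike the study, doublets were not removed and the sums were scaled to CPM. Replicates 1 to 4 are samples 2, 3, 6 and 8 by title, and the numbers only name them. The libraries differed by more than sampling noise (chi-square per degree of freedom 4.00 to 8.54).

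Members and gene lists were chosen with earlier results of these data known. Every member at a mean of 10 CPM or more is named, with those on the study's activation lists below it. Dixon's range test at the 95% level used log2(CPM + 1) of genes at 10 CPM or more. Cells rich in immediate early UMIs were tested with edgeR 4.0.16 (glmQLFTest, TMM, filterByExpr, threshold 0.05) and with DESeq2 as an alternative. Cells were ranked on 15 immediate early genes, with ties broken by a seeded draw, and each library gave a rich and an other sum, so that the block pairs 2 sums of the same mouse. Dixon's test and the edgeR test were checked on simulated data. In the edgeR simulation a gene's fold change was the same in every library, so the check does not cover changes that differ between mice. Cells are not replicates. With library as a block, the p-values rest on differences within the 4 libraries and on a variance estimated with help from all genes. They do not measure the spread between mice of a gene's level. The edgeR SE was derived from the fold change and its test statistic, and is not the spread of the 4 library ratios. Transcripts are from GENCODE M21, which is not the Ensembl gene set the counts were assigned to. By identifier 83 of the 85 symbols matched it. Promoters are from RefSeq. The stem-loop was searched in transcripts alone, not in the planned 500 bases after the gene, as no genome sequence was used here.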

Additional observations from a re-analysis of the deposited data

Results flagged for a closer look

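By Dixon's range test for 4 values, which sets a library apart in about 1 in 20 groups by chance, 7 reported values had 1 library apart. Many more values than these 7 were screened, so some such calls come by chance. The values of Hist4h4 among them describe 1 gene on several scales and are not independent. The immediate early sum was apart in replicate 4 (ratio 0.902), as were Hist4h4 on the log2 scale (0.8295) and in CPM (0.885). Hist4h4 also made up 4.11% of clustered UMIs in replicate 4 and 1.80% to 1.99% in the others (ratio 0.916). The log2 ratio of the clustered sum between cells rich in immediate early UMIs and other cells was 0.49 in replicate 4 and -0.02 to 0.04 in the others (ratio 0.891). In replicate 3 Hist1h2ap made up 12.8% of clustered UMIs, against 14.6% to 14.8% in the others (ratio 0.903). In replicate 1 H2afx made up 0.786% of replacement UMIs, against 0.610% to 0.634% (ratio 0.862).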

How the results depend on the processing

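The number of members detected, the summed levels, the clustered share and their Dixon calls stayed on the same side under every alternative run, with members with any UMI between 61 and 66 when a replicate was left out. The class ratios between cells moved by less than their SD over libraries. For the clustered sum that SD (0.24) came mostly from replicate 4, with a log2 ratio of 0.49 against 0.04, 0.01 and -0.02 in replicates 1 to 3, so this check is weak there. The number of members with a library apart was 1, and became 2 in cells with at least 1000 genes, 3 without cells with at least 2 border macrophage or monocyte markers, 0 under TMM, 1 under DESeq2 size factors, but H3f3a in place of Hist4h4, 2 with totals without mitochondrial genes, 2 with a pseudocount of 10 and 8 of 66 with no filter beyond any UMI, where 13.2% of all genes were apart. The number of members higher in cells rich in immediate early UMIs was 2, and became 0 with DESeq2, 0 with no replicate block, where the pairing of the 2 sums of a library is ignored, 1 with the top 10% of cells, 1 without Jund, Klf2 and Btg2 in the list, 1 without cells with at least 2 mitotic markers and 0 without cells with at least 2 border macrophage or monocyte markers (chosen after seeing the data). Leaving out a replicate gave 0 to 2. Dixon's test needs 4 values, so no replicate was left out there. Over all genes the counts higher and lower were 20 and 5, and became 8 and 1 with DESeq2, 63 and 24 with no thinning, 6 and 0 with no replicate block, 12 and 2 without Jund, Klf2 and Btg2, 7 and 0 with Fos, Jun, Junb and Egr1 alone and 3 and 2 without border macrophage or monocyte cells. The count lower became 19 with no filter, 3 with thinning to 2000 UMIs and 0 to 8 with a replicate left out. The fold changes of Hist1h2ap and Hist4h4 were above 0 in all 15 alternatives. The cause was not tested. With at least 1 mitotic marker (232 cells) in place of 2, marked cells held 2.35% of clustered and 2.30% of replacement UMIs, beside 2.14% of all UMIs. Depth limits the H4 genes, at 57 to 213 UMIs of Hist4h4 per library, and the members below 1 CPM.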
